A study of Mus musculus with 24 samples.

Results

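The genes described here build and run the syncytial barrier of the mouse placental labyrinth. They are 8 genes of the 55401 in the deposited table: *Syna*, *Synb*, *Gcm1*, *Ly6e*, *Slc16a1*, *Slc16a3*, *Dlx3* and *Gjb2*. They were chosen by name. Bulk RNA-seq had been made from the maternal-fetal interface (MFI), the placenta with the adjoining decidua, of wild-type (WT) C57BL/6 mice and of homozygous C1qtnf6-KO mice, in which CRISPR-Cas9 had removed exons of the gene in the germ line of the same strain background. Tissue came from gd10.5 and gd14.5 (gd, gestation day) and from the later stages gd16.5 and gd19.5. There are 24 libraries, 3 from each genotype at each stage. No treatment was given. The deletion is carried in the germ line, so maternal and fetal effects of the KO cannot be told apart. The labels name no dam, litter or batch, so the p-values measure only the spread between these libraries.

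In the mouse labyrinth, the barrier between maternal and fetal blood includes 2 layers of syncytiotrophoblast. Layer I lies on the maternal side and fuses through syncytin-A, the product of *Syna*, whose receptor is the GPI-anchored protein Ly6e. Layer II lies on the fetal side and fuses through syncytin-B, the product of *Synb*, and the transcription factor Gcm1 starts branching and marks the precursors of that layer. The lactate transporter MCT1 (*Slc16a1*) sits in the membrane of layer I and MCT4 (*Slc16a3*) in that of layer II. Connexin 26 (*Gjb2*) forms the gap junctions between the layers, and the homeodomain factor Dlx3 is needed for the labyrinth to form. These last 2 genes were assigned to no layer.

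*Synb* could not be measured in these counts. The gene lies at chr14:69289344-69294299 (GRCm38, minus strand). It had 13 counts over the 24 libraries, from 0 to 3 in a library, and 15 libraries had none. The limit set by a count of 3 was 0.0773 to 0.149 CPM (counts scaled to a common library size). The annotation holds a second gene, *Gm27179*, 218250 bases away on the same strand. Over the first 3017 bases the transcripts of *Synb* and *Gm27179* differed at 0 positions, and the 1854 coding bases differed at 0 positions. Of the windows of 150 bases, the read length, in the *Synb* transcript, 73.4% occurred without a mismatch in a transcript of another gene. The share was 8.58% for *Syna*, through the antisense gene *Gm42884* (29 counts in all libraries), and 0% for the other 6 genes. The authors' counting left out reads that map to several places. *Gm27179* had 1 count. Of 18 genes that form 9 pairs at the same offset around *Synb*, 15 had 13 counts or fewer in all libraries together. The exceptions were *Slc25a37* (30277 counts), *Gm16867* (878) and *Gm21451* (457). Low totals were common, since 39570 of the 55401 genes had any count and 19299 passed the filter over 24 libraries. The share of all genes with 13 counts or fewer was not taken, so the count of 15 is a description only. In the *Synb* transcript 2868 of 3906 windows were shared, and reads from the rest could be counted if they match nowhere else in the genome. Only transcripts were searched, and the cause of the low count was not tested. The level of *Synb* in these tissues was taken as unknown from these data, and a count of 0 does not show that the gene was silent.

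The start of the coding sequence of *Synb* is shown because it lies in the stretch that occurs at both places, and the matching bases of *Syna* because that gene was counted. Over these 120 positions 88 bases are the same and 32 differ, and capitals mark the positions that differ. The *Synb* bases are at chr14:69292684-69292803 and those of *Syna* at chr5:134559974-134560093, both on the minus strand (GRCm38, transcripts of GENCODE M21).
Synb: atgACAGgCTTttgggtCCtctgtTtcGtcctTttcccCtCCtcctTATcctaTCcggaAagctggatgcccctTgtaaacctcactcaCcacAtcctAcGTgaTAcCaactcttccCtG
Syna: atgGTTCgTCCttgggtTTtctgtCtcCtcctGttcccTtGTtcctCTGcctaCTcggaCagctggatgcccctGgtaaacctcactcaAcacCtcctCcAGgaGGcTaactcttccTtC

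The other 7 genes passed the filter on low counts in every comparison. They lie at chr5:134558146-134560171 (*Syna*, minus strand), chr9:78051924-78065624 (*Gcm1*, plus), chr15:74955051-74959905 (*Ly6e*, plus), chr3:104638668-104658462 (*Slc16a1*, plus), chr11:120948480-120960868 (*Slc16a3*, plus), chr11:95120119-95125296 (*Dlx3*, plus) and chr14:57098600-57104702 (*Gjb2*, minus). Counts were summed over annotated exons, and totals were 20975717 to 37383108 counts per library. *C1qtnf6* itself was between 64.7 and 168.3 CPM in the WT libraries and between 0.0341 and 2.05 CPM in the KO libraries, so the genotypes did not overlap. Markers of the junctional zone, decidua, NK cells, macrophages, endothelium and red cells were all detected, so a fall in a gene's level could come from fewer cells of a type or from less RNA per cell, and the bulk samples cannot tell these apart. Libraries also differed in their makeup. The summed level of 7 genes of the yolk sac endoderm, a tissue outside the placenta, was 1202 to 19950 CPM in 7 libraries, namely WT gd10.5 replicate 1, all KO gd10.5 libraries, WT gd16.5 replicate 1 and KO gd16.5 replicates 1 and 2, and at most 278.3 CPM in the other 17. It was highest in KO gd16.5 replicate 2, at 19950 CPM. KO gd10.5 replicate 2 stood apart in another way: the summed level of 9 spongiotrophoblast and glycogen cell genes was 14240 CPM there, against 1013 to 2366 CPM in the other 5 libraries of that stage. For the results that they move most, values without them are given beside the result.

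*Gjb2* had the highest mean level per length and *Gcm1* the lowest at every stage in both genotypes, although in KO *Gjb2* overlapped *Slc16a1* at gd10.5, and *Gcm1* overlapped *Slc16a3* at gd10.5 and *Syna* at gd16.5. CPM per kilobase of annotated exon was compared between genes, since longer transcripts collect more reads. In WT at gd14.5 the mean level per length ± SD over the 3 libraries was 394.6 ± 29.8 for *Gjb2*, 110.2 ± 8.74 for *Slc16a1*, 55.3 ± 5.96 for *Ly6e*, 44.1 ± 3.15 for *Syna*, 34.0 ± 2.98 for *Dlx3*, 28.7 ± 1.98 for *Slc16a3* and 14.6 ± 1.80 for *Gcm1*. No neighbours in that order overlapped in their libraries. The order was the same in KO at gd14.5, where *Syna*, *Dlx3* and *Slc16a3* overlapped. By gd19.5 *Syna* had dropped to sixth place, at 8.51 ± 2.12 in WT and 7.21 ± 1.20 in KO, with *Dlx3* and *Slc16a3* above it and no overlap between neighbours in either genotype. At gd10.5 *Syna*, *Dlx3* and *Slc16a3* overlapped in neighbouring pairs in both genotypes. The annotated exon length of *Ly6e* and *Slc16a3* joins several transcripts, which lowers their level per length.

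**Figure D1:**
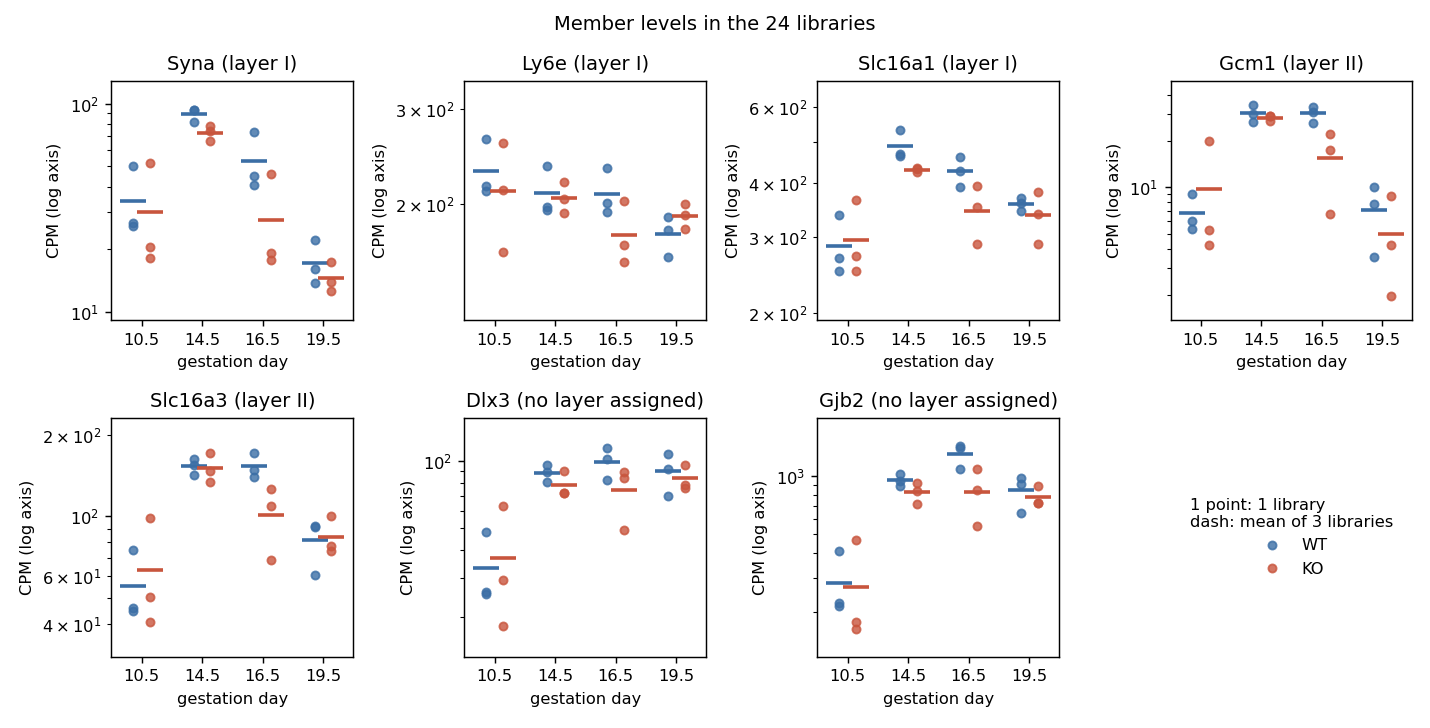
CPM on a log axis against gestation day for the 7 counted genes, with 1 point per library (WT blue, KO red) and a dash at the mean of the 3 libraries. *Syna* and *Gcm1* peaked at gd14.5 or gd16.5 and returned to a low level at gd19.5, *Dlx3* and *Gjb2* stayed high, and *Ly6e* kept between 156.2 and 263.3 CPM.

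The first question was how these genes moved as the labyrinth grew. From gd10.5 to gd14.5 in WT, 6 of the 7 genes rose and *Ly6e* did not pass the test (edgeR quasi-likelihood test, Benjamini-Hochberg adjusted p under 0.05 over 18523 genes). Of all genes tested, 27.7% rose and 28.3% fell at this step. In 6 of the 7 genes all gd14.5 libraries lay above all gd10.5 libraries, as in 31% of all genes. The median log2 fold change was 1.43 over the 7 genes and -0.01 over all genes.

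*Gcm1* changed most. Its levels were 5.37, 6.02 and 9.05 CPM at gd10.5 and 34.0, 26.5 and 30.1 CPM at gd14.5 in WT, a log2 fold change of 2.17 ± 0.281 (SE, adjusted p = 2.98e-05 in edgeR). The groups did not overlap. *Gjb2* rose from 221.2, 215.4 and 408.8 CPM to 1027, 935.3 and 885.6 CPM (log2 fold change 1.76 ± 0.232, SE). *Slc16a3* rose from 45.7, 44.9 and 75.3 CPM to 162.7, 141.7 and 153.8 CPM (1.48 ± 0.195). *Dlx3* went from 26.1, 25.5 and 48.2 CPM to 95.9, 89.7 and 80.5 CPM (1.43 ± 0.227). In these 3 genes the gd10.5 library of replicate 3 was the highest of its group and still lay below every gd14.5 library.

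*Syna* rose from 26.8, 25.8 and 50.05 CPM to 93.0, 92.9 and 81.9 CPM, a log2 fold change of 1.40 ± 0.265 (SE). *Slc16a1* rose less, from 268.6, 249.8 and 337.6 CPM to 532.3, 467.2 and 463.5 CPM (0.78 ± 0.112). Among these 6 genes the largest adjusted p was 0.000619, that of *Syna*. The syncytin-A receptor gene *Ly6e* was at 215.5, 263.3 and 210.8 CPM and then at 235.3, 197.5 and 195.1 CPM (log2 fold change -0.13 ± 0.112, adjusted p = 0.350), and its groups overlapped.

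The KO libraries, which share no library with the WT fit, gave the same 6 genes a higher level at gd14.5 than at gd10.5, with no overlap of groups. Of all genes 27% were likewise wholly higher and 25.9% wholly lower. In KO 5 of the 7 passed the test, and of all genes 22.1% rose and 24.1% fell. *Gcm1* missed the threshold (log2 fold change 1.53 ± 0.626, SE, adjusted p = 0.0653 in edgeR), and passed with no expression filter (adjusted p = 0.0203) and in a single fit of all 24 libraries (adjusted p = 0.0179). Its gd10.5 levels were 5.30, 19.9 and 4.22 CPM, so KO gd10.5 replicate 2 was far above the other libraries of its group. Without that library 6 genes passed and the *Gcm1* value was 2.57 (adjusted p = 0.00208). The count fell to 2 without KO gd10.5 replicate 1 or replicate 3 and to 3 without KO gd14.5 replicate 2 or replicate 3. The log2 fold changes in KO were 1.61 for *Gjb2*, 1.26 for *Syna*, 1.245 for *Slc16a3*, 1.09 for *Dlx3* and 0.54 for *Slc16a1*. Without KO gd10.5 replicate 2 they were 2.27, 1.91, 1.72, 1.72 and 0.72 in the same order.

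Other genes of the syncytium rose at this step too. Of 12 further syncytiotrophoblast genes, 10 passed higher and 0 lower in WT, with a median log2 fold change of 1.04, and 8 passed higher in KO. The iron exporter gene *Slc40a1* went from 64.2 to 90.3 CPM over the WT gd10.5 libraries up to 274.6 to 305.9 CPM (log2 fold change 1.88 ± 0.125, SE). The retinol receptor gene *Stra6* rose by 1.78 ± 0.204 and the transferrin receptor gene *Tfrc* by 1.44 ± 0.29. Of 28 regulators of labyrinth branching, 14 passed higher and 7 lower in WT. The homeobox gene *Esx1* (1.80 ± 0.18) and the zinc finger gene *Ovol2* (1.64 ± 0.169) rose, while *Rspo3*, a secreted Wnt enhancer, fell by 1.70 ± 0.237. Both *Esx1* and *Ovol2* are required for labyrinth development.

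Relatives of the 7 genes did not all follow them. Among 19 tested monocarboxylate transporters and partners, 8 passed higher and 5 lower in WT. *Slc16a12* (log2 fold change 2.32 ± 0.171, SE) and *Slc16a4* (2.28 ± 0.158) rose, and *Ldhd*, which encodes a lactate dehydrogenase for D-lactate, fell by 4.54 ± 0.206. Among 10 tested connexins and pannexins, 4 rose and 4 fell. Among them *Gja1* had a log2 fold change of -1.42 ± 0.193 and *Gja4* one of 1.40 ± 0.141. *Dlx4* was the 1 further Dlx gene above the filter and rose by 1.97 ± 0.263. Of 10 tested Ly6 genes on chromosome 15, the chromosome of *Ly6e*, 5 fell and 0 rose, led by *Gpihbp1* (-2.78 ± 0.209), *Ly6a* (-1.73 ± 0.211) and *Ly6c1* (-1.45 ± 0.196), genes known from endothelium and immune cells.

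The makeup of the tissue moved at the same step, and its part in these values was not tested. All 8 decidual stroma markers fell in WT, from a summed level of 6920 to 14530 CPM to one of 3019 to 3284 CPM, and all 8 NK cell markers fell. Spongiotrophoblast and glycogen cell genes rose, 8 of 9, from 1675 to 2366 CPM to 44160 to 48870 CPM. Endothelial markers fell in 5 of 8 and rose in 0. The other marker lists were mixed in WT: 3 of 9 progenitor and stem cell genes rose and 3 fell, 3 of 6 genes of sinusoidal giant cells rose and 2 fell, 2 of 5 smooth muscle genes rose and 0 fell, 2 of 7 macrophage genes rose and 2 fell, 4 of 7 erythroid genes rose and 1 fell, and 0 of 6 tested yolk sac genes rose and 2 fell.

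Between gd14.5 and gd16.5 the log2 fold changes of the genes had different signs. This step shares its gd14.5 libraries with the step before it and its gd16.5 libraries with the one after. In WT 0 of 7 passed (1 had an unadjusted p under 0.05, and DESeq2 passed 0), while 12.5% of all genes rose and 9.91% fell. *Syna* was at 40.7, 44.8 and 73.3 CPM at gd16.5, below all gd14.5 libraries (log2 fold change -0.75 ± 0.261, SE, adjusted p = 0.0556 in edgeR). It passed with upper quartile normalization (adjusted p = 0.0419), and 1 or 2 genes passed without any 1 of the gd10.5 libraries or without WT gd16.5 replicate 3. *Gjb2*, at 1084, 1384 and 1426 CPM, was above all gd14.5 libraries (0.46 ± 0.225, adjusted p = 0.171). *Slc16a1*, at 391.8, 459.7 and 426.8 CPM, was below them (-0.19 ± 0.111, adjusted p = 0.246). So 1 of 7 genes lay wholly above and 2 wholly below, as did 20.9% and 20.5% of all genes. *Gcm1* remained at 26.3, 33.3 and 30.9 CPM and *Slc16a3* at 139.0, 147.7 and 171.7 CPM.

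Among the listed genes at this step in WT, 6 of the 12 further syncytiotrophoblast genes rose and 2 fell. The amino acid transporter gene *Slc7a5* (log2 fold change 1.03 ± 0.224, SE) and the glucose transporter gene *Slc2a1* (0.78 ± 0.16) rose, and the growth factor gene *Tgfa* had -1.253 ± 0.196 and fell. Of the 28 regulators 7 rose and 1 fell, with *Egfr* at 1.55 ± 0.0999, *Bcl9l* at 0.79 ± 0.137 and *Tfeb* at -1.13 ± 0.18. Of the transporters and partners 4 rose and 1 fell, led by *Slc16a9* (0.90 ± 0.173), *Slc16a4* (0.86 ± 0.142) and *Slc16a10* (0.85 ± 0.112). Of the connexins and pannexins *Gja3* rose (1.46 ± 0.263) and *Panx1* (-0.62 ± 0.197) and *Gjb5* (-0.50 ± 0.145) fell. The Ly6 genes *Psca* (2.34 ± 0.742) and *Ly6k* (1.23 ± 0.367) rose.

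In KO at the same step 1 of 7 passed, *Syna*, which fell from 66.3, 77.7 and 73.6 CPM to 19.1, 17.8 and 46.0 CPM (log2 fold change -1.39 ± 0.418, SE, adjusted p = 0.0415 in edgeR). Of all genes 9.37% rose and 8.10% fell. The call was lost without any 1 of 8 of the 12 KO libraries and with the replicate number as a block (adjusted p = 0.0716). In 4 of 7 genes all KO gd16.5 libraries lay below all KO gd14.5 libraries, as in 23.1% of all genes. Besides *Syna* these were *Gcm1* (-0.88 ± 0.615), *Slc16a3* (-0.57 ± 0.301) and *Slc16a1* (-0.32 ± 0.159), which did not pass. Without KO gd16.5 replicate 2, the library with the highest yolk sac level, these values were -0.50, -0.35 and -0.20, and that of *Syna* was -1.15.

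From gd16.5 to gd19.5 *Gcm1*, *Syna* and *Slc16a3* fell in WT, 3 of 7, while of all genes 3.16% rose and 4.81% fell. *Gcm1* came down to 10.04, 7.81 and 3.55 CPM (log2 fold change -2.07 ± 0.283, SE, adjusted p = 0.00145 in edgeR). *Syna* came down to 22.0, 13.7 and 16.0 CPM (-1.61 ± 0.275, adjusted p = 0.00462). *Slc16a3* came down to 92.1, 91.5 and 60.8 CPM (-0.90 ± 0.193, adjusted p = 0.0146), and its call was lost without WT gd16.5 replicate 3 (adjusted p = 0.0542) or WT gd19.5 replicate 3 (adjusted p = 0.0682) and in a single fit of all 24 libraries (adjusted p = 0.0614). None of these 3 groups overlapped. In WT 6 of the 7 genes had all gd19.5 libraries below all gd16.5 libraries, a pattern shared by 16.8% of all genes.

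*Gjb2* was at 969.7, 909.7 and 642.8 CPM at gd19.5, below all gd16.5 libraries (log2 fold change -0.62 ± 0.226, SE, adjusted p = 0.113 in edgeR). It passed in DESeq2 (adjusted p = 0.0465), with no expression filter (6.47e-05) and without WT gd10.5 replicate 3 (0.0247), so that 2 to 4 of the 7 genes passed over the alternatives of this step. *Slc16a1*, at 370.2, 359.4 and 344.2 CPM, and *Ly6e*, at 189.2, 159.7 and 179.0 CPM, were also below all gd16.5 libraries, by values of -0.25 ± 0.112 and -0.24 ± 0.113 that did not pass. *Dlx3*, at 108.1, 92.2 and 69.7 CPM, overlapped its gd16.5 levels of 82.4, 101.9 and 114.4 CPM. In KO 0 of 7 passed (1 had an unadjusted p under 0.05, and DESeq2 passed 0), and 0.574% of all genes rose and 0.666% fell. The KO values were -1.64 ± 0.652 for *Gcm1*, -0.92 ± 0.424 for *Syna* and -0.27 ± 0.301 for *Slc16a3*. Leaving out 1 library moved *Syna* between -1.16 and -0.34 and *Slc16a3* between -0.49 and -0.08, the lower values without KO gd16.5 replicate 2 and the higher without KO gd16.5 replicate 3. These 3 genes passed in WT and not in KO, but a difference between the genotypes was not detected by the interaction given below, which passed for none of them. Of the other syncytiotrophoblast genes 3 of 12 fell in WT, *Stra6* (-0.96 ± 0.199), *Slc7a5* (-0.82 ± 0.223) and *Abcb1a* (-0.61 ± 0.136). *Bsg*, the chaperone that carries MCT1 and MCT4 to the membrane, fell by 0.42 ± 0.086, from 1224 to 1278 CPM over the libraries to 849.9 to 982.4 CPM, and the transporter gene *Slc16a5* rose by 0.99 ± 0.282. Of the regulators 1 rose, the receptor gene *Met* (1.00 ± 0.139), and 4 fell, among them *Ovol2* (-0.81 ± 0.162) and *Lifr* (-0.47 ± 0.108). The Ly6 gene *Ly6d* rose by 2.29 ± 0.532. Among 10 tested connexins and pannexins 0 rose and 0 fell.

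Genes assigned to layer I and to layer II were then compared in pairs within each library, as ratios that no library size can move. Whether these mRNA ratios follow the balance of the layers in this mixed tissue was not tested. The planned pair of syncytins could not be formed without *Synb* counts. MCT1 to MCT4 was kept as planned, and *Syna* to *Gcm1* was added after the data had been seen. Ratios are of reads per kilobase, and 8 exact permutation tests were run, 4 per pair, each two-sided and with labels permuted within genotype or within stage.

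The *Slc16a1* to *Slc16a3* ratio was 5.39 to 7.05 in WT and 4.47 to 7.39 in KO at gd10.5. At gd14.5 it was 3.62 to 3.96 in WT and 3.06 to 3.83 in KO. The log2 ratio fell by 0.76 between these stages (exact permutation p = 0.005, the smallest that 400 splits can give, adjusted p = 0.03), and the groups did not overlap in either genotype. At gd16.5 the ratio was 2.99 to 3.74 in WT and 3.77 to 5.02 in KO, and the mean log2 difference from gd14.5 was 0.04 (exact permutation p = 0.755). At gd19.5 it was 4.72 to 6.81 in WT and 4.57 to 5.28 in KO, a rise of 0.44 in the log2 ratio (exact permutation p = 0.015, adjusted p = 0.03). Its mean was lowest at gd16.5 in WT and at gd14.5 in KO, and in KO the gd16.5 and gd19.5 libraries overlapped. The second call was lost without any 1 of WT gd16.5 replicate 3, WT gd19.5 replicate 3 and KO gd16.5 replicates 1 and 3 (adjusted p 0.05 to 0.06), and the first without KO gd14.5 replicate 1 or 3 (adjusted p = 0.0533).

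The *Syna* to *Gcm1* ratio was 4.36 to 5.63 in WT and 2.67 to 4.37 in KO at gd10.5, and 2.78 to 3.57 and 2.52 to 2.75 at gd14.5. The log2 ratio fell by 0.59 (exact permutation p = 0.01, adjusted p = 0.03). It fell by a further 0.65 to gd16.5, where the ratio was 1.37 to 2.42 in WT and 1.11 to 2.72 in KO (exact permutation p = 0.015, adjusted p = 0.03). The gd14.5 call was lost without KO gd14.5 replicate 1 or 3 (adjusted p = 0.0533), and the gd16.5 call without any 1 gd14.5 library or KO gd16.5 replicate 1 (adjusted p 0.05 to 0.09). At gd19.5 the ratio spread from 1.79 to 4.58 in WT and from 2.00 to 7.13 in KO, and the mean log2 difference of 0.76 did not pass (exact permutation p = 0.085, adjusted p = 0.136). Over all stages KO and WT differed in the log2 ratio by -0.01 for *Slc16a1* to *Slc16a3* (exact permutation p = 0.877) and by -0.05 for *Syna* to *Gcm1* (exact permutation p = 0.831). These differences are averages over the stages, which were not tested singly. At gd16.5 the *Slc16a1* to *Slc16a3* ratio was higher in every KO library (3.77 to 5.02) than in every WT library (2.99 to 3.74). Its KO mean was below its WT mean at the other stages. At gd14.5 the *Syna* to *Gcm1* ratio was lower in every KO library (2.52 to 2.75) than in every WT library (2.78 to 3.57). Its KO mean was also lower at gd10.5, and higher at gd16.5 and gd19.5. As a description, the mean log2 level of the 3 layer I genes minus that of the 2 counted layer II genes went from 2.80 through 1.66 and 1.33 to 2.19 over the stages in WT, and from 2.51 through 1.55 and 1.67 to 2.41 in KO. The return at gd19.5 rested mostly on *Gcm1*: without that gene the series was 1.97, 1.17, 0.84 and 1.07 in WT and 1.72, 1.03, 0.93 and 0.94 in KO.

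**Figure D2:**
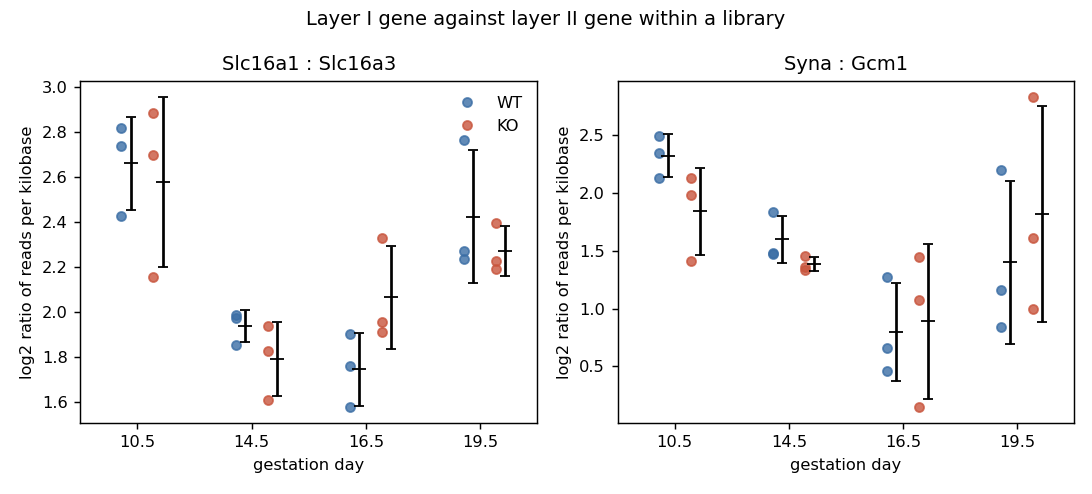
Log2 ratio of reads per kilobase within a library against gestation day, for *Slc16a1* to *Slc16a3* and for *Syna* to *Gcm1*. Points are libraries (WT blue, KO red) and the black bars give the mean ± SD of 3 libraries; the first ratio is lowest at gd14.5 and gd16.5 and the second at gd16.5.

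The study's own question was what loss of *C1qtnf6* does at the interface, and here it was asked of the syncytial genes at each stage. No gene of this group passed between KO and WT at any stage: 0 of 7 at gd10.5, where 0% of all genes passed higher and 0.00572% lower, 0 of 7 at gd14.5 (0.0111% and 0.00555%), 0 of 7 at gd16.5 (0% and 0.00586%) and 0 of 7 at gd19.5 (0.0287% and 0.0862%). DESeq2 also passed 0 of 7 at each stage, while over all genes it called 2, 26, 179 and 202 in the order of the stages. The number with an unadjusted p under 0.05 was 0, 2, 4 and 0 in the order of the stages.

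At gd16.5 all 7 log2 fold changes were below 0, with a median of -0.58 against 0.01 over all genes. Among the other lists the median ran from -1.52 for NK cells to 1.54 for yolk sac endoderm. It was -0.31 for the 12 further syncytiotrophoblast genes. The members other than *Ly6e* vary together within groups, as given below, so their shared sign is not a set of separate observations. *Gcm1* was at 17.6, 6.66 and 22.2 CPM in KO and 26.3, 33.3 and 30.9 CPM in WT (-0.96 ± 0.374, SE, adjusted p = 0.433 in edgeR). *Slc16a3* was at 108.8, 69.1 and 126.0 CPM against 139.0, 147.7 and 171.7 CPM (-0.58 ± 0.206, adjusted p = 0.431). *Gjb2* was at 842.8, 555.2 and 1084 CPM against 1084, 1384 and 1426 CPM (-0.64 ± 0.234, adjusted p = 0.431). In these 3 genes every KO library was below every WT library, for *Gjb2* only just, since KO replicate 3 and WT replicate 1 round to the same CPM, a pattern that 9.62% of all genes shared at this stage.

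*Syna* was at 19.1, 17.8 and 46.0 CPM in KO and 40.7, 44.8 and 73.3 CPM in WT at gd16.5 (log2 fold change -0.93 ± 0.39, SE, adjusted p = 0.446 in edgeR), with overlap in 1 KO library. The values were -0.41 ± 0.225 for *Dlx3*, -0.29 ± 0.126 for *Slc16a1* and -0.24 ± 0.117 for *Ly6e*. KO gd16.5 replicate 2, the library with the highest yolk sac level, was the lowest in 6 of the 7 genes, all but *Ly6e*. Without it the values shrank to -0.59 for *Gcm1*, -0.69 for *Syna*, -0.42 for *Gjb2*, -0.37 for *Slc16a3*, -0.19 for *Dlx3*, -0.18 for *Slc16a1* and -0.21 for *Ly6e*. Yolk sac genes summed to 7168, 19950 and 154.4 CPM in KO and to 7495, 181.7 and 79.8 CPM in WT, and the sums of other cell types differed too. With no overlap between the genotypes, the sum was 82270 to 89000 CPM in KO and 52910 to 66540 CPM in WT for spongiotrophoblast and glycogen cells, 25640 to 29730 against 17310 to 24370 CPM for sinusoidal giant cells, and 2602 to 2753 against 2353 to 2590 CPM for the progenitor and stem cell list. In that last list 0 of 8 tested genes passed, with a median log2 fold change of 0.12, and a sum weighs its abundant genes most. Nor did a gene pass in the lists of spongiotrophoblast and glycogen cells (0 of 9) and of sinusoidal giant cells (0 of 6). The sum was lower in KO for smooth muscle, 102.0 to 108.3 against 131.2 to 165.4 CPM, and for NK cells, 13 to 19.7 against 35.1 to 56.7 CPM. In these lists 0 of 5 and 0 of 3 tested genes passed. Sums without overlap were also seen at gd19.5, where no gene of the group was separated. There macrophage genes summed to 1054 to 1073 CPM in KO against 889.5 to 967.7 CPM in WT. Decidual stroma genes summed to 2322 to 2711 CPM in KO against 2864 to 4136 CPM in WT. The part of tissue makeup in the result was not tested.

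At gd14.5 all 7 log2 fold changes were below 0, by less than at gd16.5. Those of *Ly6e*, *Gcm1* and *Slc16a3* turned above 0 when WT gd14.5 replicate 1 was left out (0.065, 0.0020 and 0.022). *Syna* was at 66.3, 77.7 and 73.6 CPM in KO against 93.0, 92.9 and 81.9 CPM in WT (-0.31 ± 0.0752, SE, adjusted p = 0.517 in edgeR). *Slc16a1* was at 424.8, 432.5 and 434.3 CPM against 532.3, 467.2 and 463.5 CPM (-0.18 ± 0.0746, adjusted p = 0.728). For these 2 genes no KO library reached a WT library, a pattern shared by 6.10% of all genes at this stage. *Gjb2* overlapped between the genotypes (-0.21 ± 0.105). The 2 genes at this stage and the 3 at gd16.5 were not the same, so no gene of the group was separated at both.

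At gd10.5 and gd19.5 no gene of the group was separated by genotype. The gd10.5 values turned with single libraries. Without WT gd10.5 replicate 3, *Syna* and *Gjb2* had log2 fold changes of 0.20 and 0.30, above 0. KO gd10.5 replicate 2 moved *Gcm1* across 0: its log2 fold change was 0.53 ± 0.599 (SE) with that library and -0.51 without it. *Syna* had -0.17 ± 0.461 with all libraries and -0.81 without that one. In that library *Syna* was at 52.0 CPM, *Slc16a3* at 98.3 CPM, *Dlx3* at 62.8 CPM and *Gjb2* at 465.7 CPM, the highest of all 6 libraries of the stage for each gene, beside its raised spongiotrophoblast level. At gd19.5 *Gcm1* was at 8.83, 1.98 and 4.19 CPM in KO and 10.04, 7.81 and 3.55 CPM in WT (-0.57 ± 0.472), and *Syna* at 17.3, 13.9 and 12.6 CPM against 22.0, 13.7 and 16.0 CPM (-0.27 ± 0.171). *Ly6e* lies 3.56 Mb from *C1qtnf6* on chromosome 15, and its value of 0.08 ± 0.0787 at that stage did not pass (adjusted p = 0.668 in edgeR). Whether the KO effect changed with stage was asked in 1 model of all 24 libraries: 0 of 7 genes passed (adjusted p 0.795 to 0.921 in edgeR, none with an unadjusted p under 0.05, and DESeq2 passed 0), as did 0% of all genes. Of the listed genes that are no member, the growth factor receptor gene *Egfr* alone passed between KO and WT, higher at gd19.5 (0.46 ± 0.0666, adjusted p = 0.0436 in edgeR), a call that was lost without any 1 of the 6 libraries (adjusted p 0.0679 to 0.207) and in a single fit of all 24 (0.308).

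**Figure D3:**
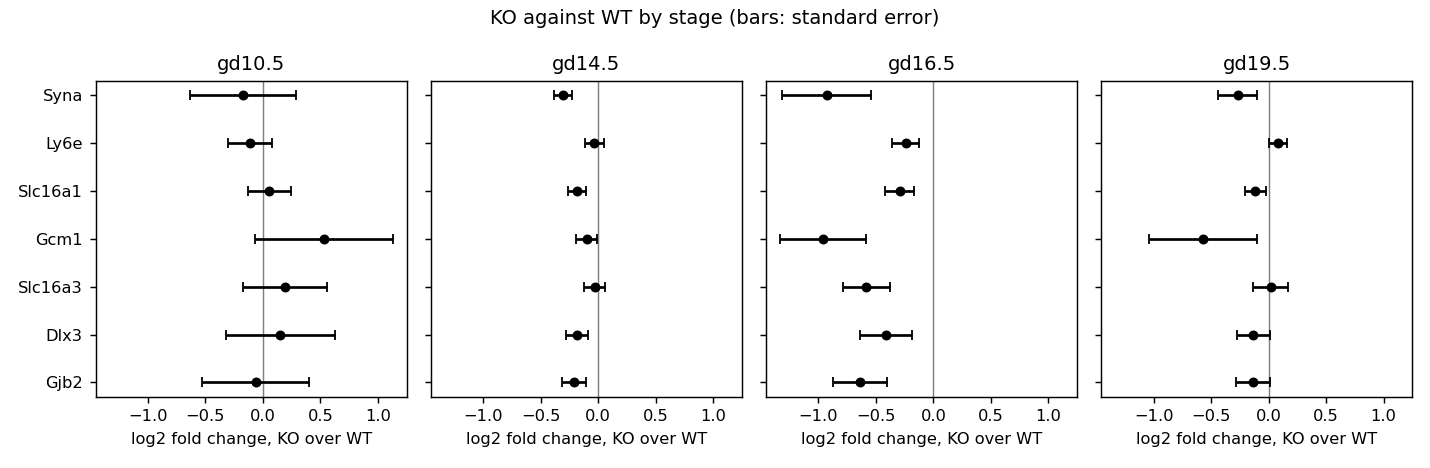
Log2 fold change of KO over WT with its standard error for the 7 counted genes at each stage. At gd14.5 and gd16.5 all 7 points lie left of 0, from -0.31 to -0.03 and from -0.96 to -0.24, and no gene passed the test at any stage.

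Within a group, the levels of the genes varied together from library to library, *Ly6e* excepted. Deviations of log2 CPM from the group mean were correlated over the 24 libraries, which share their depth and tissue makeup with every gene, so the values are a description. Among the 6 genes other than *Ly6e*, Pearson's r was between 0.704 (*Syna* and *Gcm1*) and 0.970 (*Slc16a3* and *Gjb2*). For *Ly6e* against the other 6 it was between -0.444 and -0.119. Without KO gd10.5 replicate 2 and KO gd16.5 replicate 2, over 22 libraries, the first range was 0.442 to 0.938, with the same pairs at its ends, and the second -0.185 to 0.351, with *Syna* at the top. *Ly6e* is known to be expressed by many cell types.

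The genes most like each of these were found among 11580 genes with a mean of at least 5 CPM. By deviations, *Syna* was closest to *Stra6* (r = 0.941), *Muc1* (0.931) and *Tfeb* (0.924), and *Gcm1* to *Rflna* (0.963), *Ripply1* (0.956) and *Trp63* (0.954). *Slc16a3* was closest to *Slc22a3* (0.981), *Gjb2* (0.970) and *Lonp2* (0.964), and *Gjb2* to *Snap91* (0.983), *Mtmr4* (0.974) and *Slc16a3*. *Slc16a1* was closest to *Lonrf3* (0.959), *Fhod3* (0.944) and *Pard6g* (0.931). *Dlx3* was closest to *Ttll5* (0.966), *Fhdc1* (0.960) and *Zfp36l3* (0.955), and *Ly6e* to *Cxcl14* (0.873), *Rab32* (0.872) and *Slc39a13* (0.869). Without the same 2 libraries these genes held ranks 1 to 20.

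By levels, stage included, the order changed for most. *Syna* was closest to *Cand2* (r = 0.968), *Slc38a7* (0.958) and *Fam78a* (0.946), and *Gcm1* to *Rflna* (0.965), *Shisa7* (0.950) and *Acat1* (0.930). The closest gene to *Slc16a1* was *Slc16a3* (0.944), followed by *Slc22a23* (0.942) and *Wwp1* (0.939). *Slc16a3* was closest to *Irx3* (0.968), *Sort1* (0.965) and *Epb41* (0.964), *Gjb2* to *Snap91* (0.994), *Plbd1* (0.991) and *Ppfibp2* (0.981), and *Dlx3* to *Ttll5* (0.987), *Fhdc1* (0.982) and *Trp63* (0.975). Among the genes closest to *Ly6e* were *Myo9b* (0.841) and *Rtl8c* (0.835). Without the 2 libraries the genes named by levels held ranks 1 to 10.

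**Figure D4:**
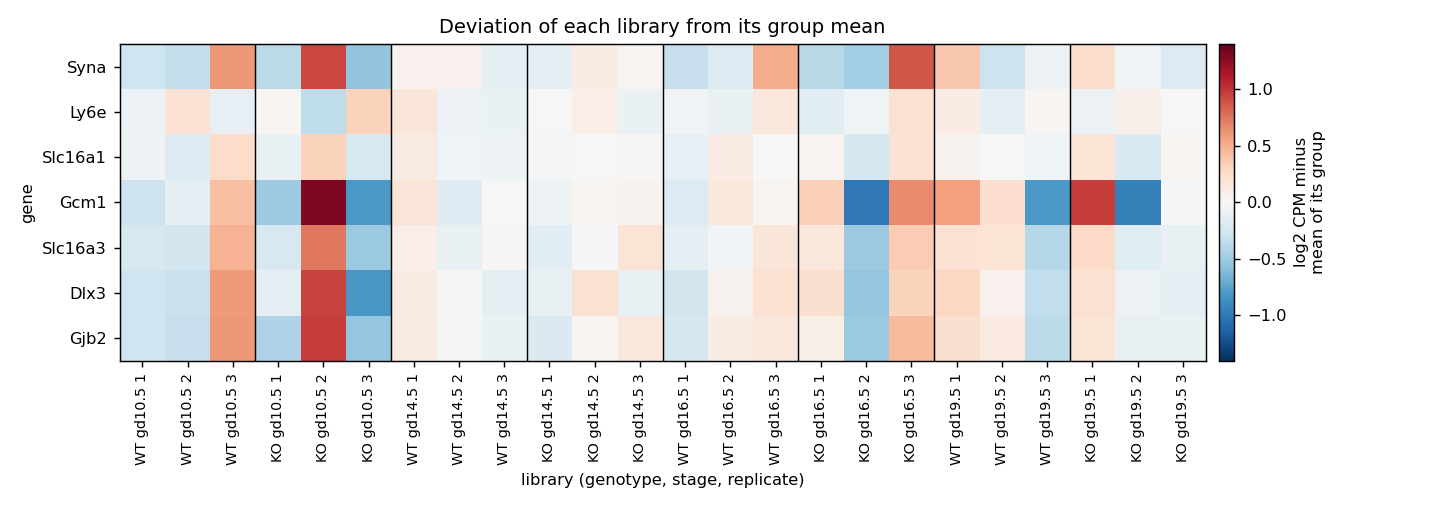
Log2 CPM of each library minus the mean of its group of 3, for the 7 counted genes (rows) and 24 libraries (columns), with red above and blue below the mean. Columns are mostly of 1 colour outside the *Ly6e* row. The strongest are KO gd10.5 replicate 2 (up) and KO gd10.5 replicate 3 and KO gd16.5 replicate 2 (down).

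Because most of these genes moved together, the 250 bases before their start sites were searched on both strands for 2 motifs. RefSeq promoters were at hand for 5 of the genes, *Syna*, *Gcm1*, *Slc16a1*, *Slc16a3* and *Gjb2*. Their starts can differ from those of the annotation used for the counts. The stretch of *Slc16a3* lies inside the annotated gene, and that of *Gcm1* runs into the first bases of its gene. The core of the Gcm1 motif, ATGCGGG, was in 0 of the 5 and in 1.19% of 32851 promoters. The motif of AP-2 factors, GCCNNNGGC, was in 3 of the 5 and in 13.7% of all promoters. It began 202 bases before the start of *Syna*, 181 before that of *Slc16a3* and 124 before that of *Gjb2*. The 3 promoters follow with the match in capitals, in gene orientation (GRCm38.p6): chr5:134560172-134560421 (minus strand), chr11:120948817-120949066 (plus strand) and chr14:57104703-57104952 (minus strand).
Syna: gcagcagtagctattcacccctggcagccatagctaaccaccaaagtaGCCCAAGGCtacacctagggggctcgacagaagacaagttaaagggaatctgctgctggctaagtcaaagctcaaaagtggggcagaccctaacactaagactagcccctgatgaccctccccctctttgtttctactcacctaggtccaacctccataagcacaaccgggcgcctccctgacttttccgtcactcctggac
Slc16a3: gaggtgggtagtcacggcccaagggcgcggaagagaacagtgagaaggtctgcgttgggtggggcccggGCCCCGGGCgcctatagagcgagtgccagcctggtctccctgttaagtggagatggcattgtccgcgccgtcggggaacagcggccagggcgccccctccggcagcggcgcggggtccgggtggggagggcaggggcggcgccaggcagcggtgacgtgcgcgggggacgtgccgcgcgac
Gjb2: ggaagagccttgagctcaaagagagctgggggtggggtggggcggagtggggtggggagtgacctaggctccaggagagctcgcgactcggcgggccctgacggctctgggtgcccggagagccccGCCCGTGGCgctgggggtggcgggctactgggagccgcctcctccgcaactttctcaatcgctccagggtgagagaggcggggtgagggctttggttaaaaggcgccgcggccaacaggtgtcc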

How the data were processed

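RNA-seq covered 3 MFI libraries for each genotype and stage. Per the submitters' processing notes and the study's methods, the authors trimmed the paired reads with Trim Galore 0.6.4, aligned them to GRCm38 with STAR 2.7.3a and counted them on genes with featureCounts of Subread 2.0.0 with default settings, in which strand is ignored and multi-mapping reads are not counted. They deposited raw counts per gene; 0 columns of values were left unmatched to a sample. A strand-blind count cannot separate a gene from an antisense partner. The KO replicate numbers follow the descriptions, since titles number them otherwise.

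Counts were tested in R 4.3.3 with the edgeR 4.0.16 quasi-likelihood test after filterByExpr (at least 10 counts, total of at least 15) and TMM normalization: KO against WT on the 6 libraries of a stage, stage steps within the 12 libraries of a genotype, and the interaction over 24. Genes passed at a Benjamini-Hochberg adjusted p under 0.05. DESeq2 1.42.0 was an alternative, beside other normalizations, filters, a replicate block, a fold limit, a single fit and leaving out each library. CPM in the text used TMM over all 24 libraries, and correlations used log2(CPM + 0.5). Ratios added 0.5 to each count. The edgeR test and the ratio test were tested on simulated data. A limit of 3 counts covers counting error only. Motifs and transcripts were searched with Python 3.11.15.

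The members, lists and naming rules were chosen with earlier results of these data known. All 8 members are named, and from each list up to 3 genes per WT step and KO comparison that passed without overlap, ranked by size of change, plus the 3 genes most correlated with each member by levels and by deviations. Genes of the lists that mark other cell types are given as counts and summed levels, not by name. The values of 2 genes that this rule names are not reported here.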

Additional observations from a re-analysis of the deposited data

How the results depend on the processing

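Most values kept their direction and their side of the threshold. Without an expression filter, 1 gene passed between KO and WT at gd14.5 (*Syna*) and 1 at gd19.5 (*Gcm1*). Over all genes that setting called 243 of 34265 at gd14.5 and 675 of 34111 at gd19.5. The main fits called 2 higher and 1 lower at gd14.5, and 5 higher and 15 lower at gd19.5. At the WT step from gd14.5 to gd16.5, 2 passed without a filter, which called 4486 of 36940 genes. Upper quartile normalization, a minimum of 10 counts in every library and the replicate block each passed 1 at that step. With the replicate block, 0 genes passed at the KO step from gd14.5 to gd16.5, and the ratio changes kept their values of -0.76 and 0.44 (*Slc16a1* to *Slc16a3*, first and last step) and -0.59 and -0.65 (*Syna* to *Gcm1*, first and second step) but lost their calls (adjusted p 0.0833 to 0.1, exact permutation of signs). The smallest unadjusted p of these blocked tests is 0.0312, too large for 4 of 8 tests to pass after adjustment, so the lost calls say nothing about stability. The block changed no other call of the members. The cause of the other changes was not tested. The replicate numbers do not pair the samples, since same-numbered deviations correlated between -0.455 and 0.406. The *Syna* to *Synb* ratio was not run for want of *Synb* counts.

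Leaving out 1 library at a time, 2 to 6 genes passed at the KO step from gd10.5 to gd14.5, 0 to 1 at the next KO step and 0 to 2 at the WT step from gd14.5 to gd16.5. The *Slc16a1* to *Slc16a3* log2 ratio changed by -0.86 to -0.68, by -0.025 to 0.083 and by 0.36 to 0.51 over the 3 steps, and by -0.0530 to 0.0379 between KO and WT. The *Syna* to *Gcm1* ratio changed by -0.70 to -0.52 and by -0.79 to -0.46 over the first 2 steps, and by -0.17 to 0.056 between KO and WT. Log2 fold changes of KO over WT that turned at gd10.5 ranged from -0.81 to 0.20 (*Syna*), -0.29 to 0.045 (*Ly6e*), -0.12 to 0.19 (*Slc16a1*), -0.51 to 0.90 (*Gcm1*), -0.27 to 0.47 (*Slc16a3*), -0.48 to 0.51 (*Dlx3*) and -0.72 to 0.30 (*Gjb2*). At gd14.5 they ranged from -0.0846 to 0.0654 (*Ly6e*), -0.19 to 0.0020 (*Gcm1*) and -0.13 to 0.047 (*Slc16a3*), and at gd19.5 from -0.15 to 0.11 (*Slc16a3*) and -0.28 to 0.016 (*Dlx3*). Without both libraries that stand apart, an alternative chosen after seeing the data, the highest correlation of *Ly6e* with another member turned from -0.119 to 0.351. None of these fold changes passed the test with or without the library.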
